A study of Arabidopsis thaliana with 8 samples.

Results

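GAPC2, TUB6, AT4G34270 and PEX4 are genes often used in Arabidopsis thaliana as internal references, against which the level of other transcripts is expressed. They were taken as the probe sets annotated to exactly 1 gene, being 1 of these 4. A probe set is the group of short array probes that report 1 transcript. Each gene had 1 such probe set, so the 4 make up 4 of 22810 probe sets, and none was lost to a filter on low signal.

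The arrays were ATH1 chips hybridised with biotin-labelled RNA from whole shoots of the Col-1 strain, at the stage of 4 rosette leaves. Agar plates served as the medium, the day lasted 16 h, and shoots were taken 6 h after its start, with no other treatment named. Spike mixes numbered 1 to 7, sets of RNAs added to the sample, were measured on 1 array each, and a reference spike mix on 1 more. All 8 samples thus share strain, tissue, stage and harvest, and differ in the labels only by the added mix. The study compares array platforms, and its title names CATMA, Affymetrix and Agilent arrays. The shoot genes described here give the spread between arrays when the labels differ only by the mix.

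No mix has a second array, so every SD below is taken over the 8 arrays and no p-value can be given. The labels do not say whether the arrays share 1 RNA extract, so the SD may hold differences between samples as well as between hybridisations. The 2% trimmed mean signal was equal on all arrays, and from 73.6% to 77.0% of the probe sets lay above a floor of 12.9, the 25th percentile of the table. All 4 genes lay above that floor on all 8 arrays. The arrays of mixes 4, 5 and 6 stood apart on the first principal component of the probe sets that were neither controls nor of wide range, with loadings of 0.51, 0.29 and 0.52 against -0.12 to -0.38 for the other 5 arrays. The tissue label was checked on markers. Of 8 shoot markers 4 were measured, and these, for Rubisco activase, a photosystem I subunit and a pair of light-harvesting proteins, had mean signals of 3218 to 3902. Of 6 root markers 3 were measured. PYK10 had a high signal of 999, and EXPA7 and EXPA18, expansin genes of root hairs, had 21.0 and 24.6. The root markers thus did not all follow the shoot label. The flower marker AT5G07230 and the pollen actin ACT12 lay under the floor on all 8 arrays, and the pollen gene AT1G29140 on 4 of them.

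The 4 genes belong to unrelated processes. GAPC2 encodes a cytosolic glyceraldehyde-3-phosphate dehydrogenase, an enzyme of glycolysis. TUB6 encodes a beta-tubulin, a building block of microtubules. AT4G34270 encodes a protein of the TIP41-like family, named after a yeast protein that acts with the TOR kinase and its phosphatases. PEX4, also called UBC21, encodes a peroxin, an enzyme that attaches ubiquitin at the peroxisome and so helps recycle the receptor that imports proteins. A reference gene is useful where its level is the same in all samples compared, because any change in it is passed on, inverted, to each gene divided by it.

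The signal of a probe set depends on its probes as well as on its transcript, so signals are compared between arrays and not between genes. GAPC2 had a high signal throughout, lowest in mixes 2 and 3. It had 2767 in mix 1, 2222 in mix 2, 2119 in mix 3, 2469 in mix 4, 2611 in mix 5, 2741 in mix 6, 2562 in mix 7 and 2484 with the reference mix. The mean was 2497 ± 230 (SD, n = 8 arrays), with a range of 1.31-fold. It ranked between 87 and 119 from the top of all 22810 probe sets on each array.

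TUB6 had the narrowest range of the 4, and its values fell into 2 sets with a gap between them. Its signal was 466 in mix 1, 459 in mix 6 and 460 with the reference mix, and 393 in mix 2, 401 in mix 3, 404 in mix 4, 411 in mix 5 and 394 in mix 7. The mean was 423 ± 32.2 (SD, n = 8 arrays), with a range of 1.19-fold. The 3 high arrays include 1 of the 3 that stood apart on the first principal component, that of mix 6.

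PEX4 was almost constant on 7 arrays and low on 1. It had 277 in mix 1, 275 in mix 2, 284 in mix 3, 267 in mix 5, 283 in mix 6, 282 in mix 7 and 284.0 with the reference mix, and 201 in mix 4. The mean over all arrays was 269 ± 27.9 (SD, n = 8 arrays), with a range of 1.41-fold. Without the array of mix 4 the mean was 279 ± 6.37 (SD, n = 7 arrays), with a range of 1.06-fold, and mix 4 stood at 72.3% of that mean.

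AT4G34270 had a modest signal, spread over its range with no single array apart. Its signal was 84.2 in mix 1, 80.6 in mix 2, 70.6 in mix 3, 91.2 in mix 4, 98.3 in mix 5, 72.1 in mix 6, 75.2 in mix 7 and 89.2 with the reference mix. The mean was 82.7 ± 9.85 (SD, n = 8 arrays), with a range of 1.39-fold. Mixes 3, 6 and 7 were low and mixes 4 and 5 high, so the arrays that stood apart lay on both sides of the mean.

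**Figure D1:**
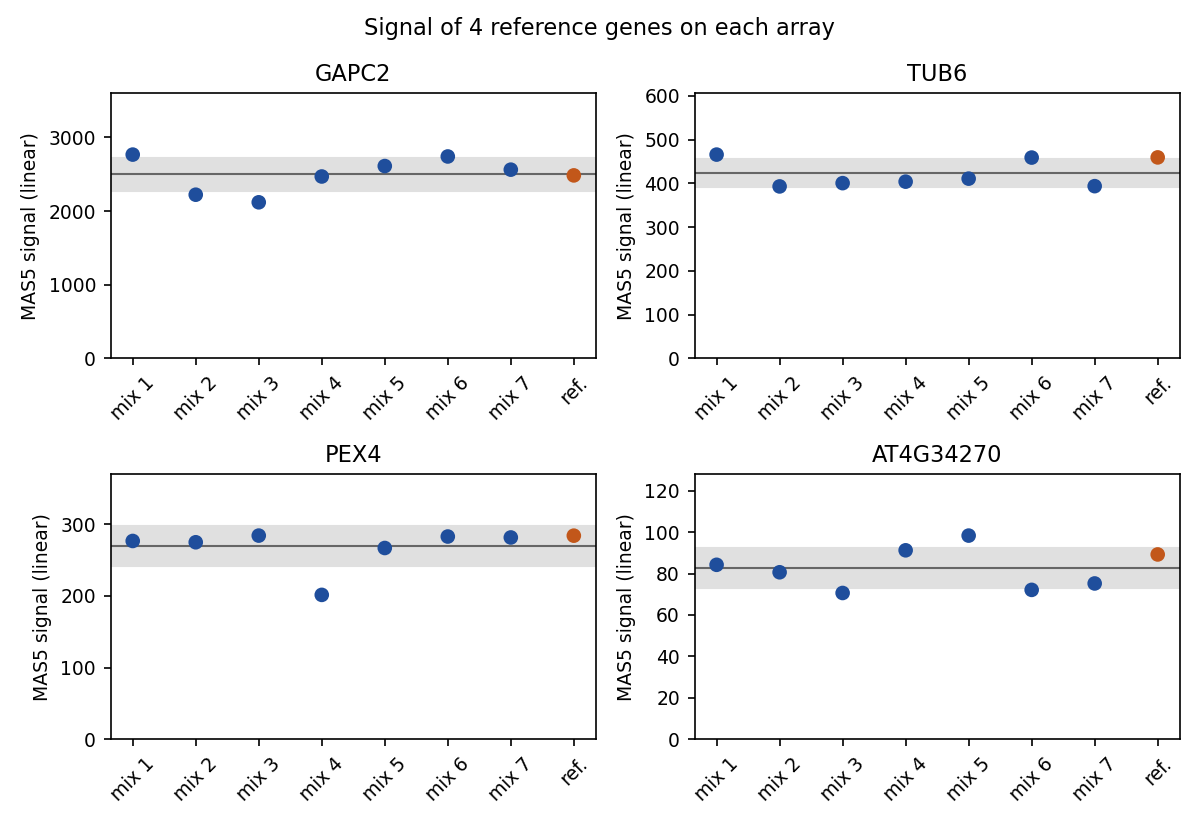
MAS5 signal (linear axis from 0) of each gene on the 7 arrays of the spike mixes (blue) and on the reference array (orange); the line is the mean over 8 arrays and the grey band is 1 SD to each side. PEX4 is level except in mix 4 (201), and TUB6 is higher on 3 arrays (459 to 466) than on the other 5 (393 to 411).

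Against the reference array, a difference was called at 0.32 or more in log2 units, in either direction. No value of the 4 genes was called higher in any mix, and 2 of 28 were called lower. These were AT4G34270 in mix 3, with a log2 ratio of -0.34, and PEX4 in mix 4, with -0.50. The first call depended on the comparator, since AT4G34270 in mix 3 had -0.25 against the mean of the other 7 arrays, where PEX4 in mix 4 had -0.47. AT4G34270 in mix 6, with -0.31, lay just short of the threshold and passed it with arrays scaled to a common median (-0.43) or quantile normalized (-0.34). The background is the 11352 bright native probe sets, those that are no control, span less than 16-fold over the arrays and have a mean signal of at least the table's median of 42.5. Of these, the share called lower was 7.38% in mix 1, 4.77% in mix 2, 5.11% in mix 3, 7.17% in mix 4, 5.31% in mix 5, 11.2% in mix 6 and 5.6% in mix 7. The share called higher was 7.66%, 7.17%, 8.73%, 9.61%, 6.95%, 12.1% and 7.89% in mixes 1 to 7. The 2 of 28, or 7.14%, is thus near the background.

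All 7 comparisons share the 1 reference array, on which TUB6 was among its 3 high values. TUB6 accordingly had log2 ratios of -0.23 in mix 2, -0.20 in mix 3, -0.19 in mix 4, -0.16 in mix 5 and -0.22 in mix 7, but 0.02 in mix 1 and -0.0013 in mix 6. Against the mean log2 signal of the other 7 arrays the same gene had 0.16 in mix 1 and 0.14 in mix 6, and -0.05 in mix 5. GAPC2 had log2 ratios to the reference array from -0.23 in mix 3 to 0.16 in mix 1.

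Taken over all 28 pairs of arrays, TUB6 never differed by as much as 0.32 in log2 units. GAPC2 did so in 2 pairs, both with mix 3. AT4G34270 did so in 6 pairs, each with mix 3, 5 or 6, and PEX4 in 7 pairs, which are the pairs of mix 4 with every other array. Over the bright native probe sets, 16.2% of such differences reached that size, against 7.14% for GAPC2 and 21.4% for AT4G34270. Without mix 4 the count for PEX4 is 0.

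Spread between arrays depends on signal, so each gene was set beside the 200 native probe sets nearest to it in mean log2 signal. None of the 4 had an SD below the median of the probe sets of like signal when all 8 arrays were used. The SD of log2 signal was 0.11 for TUB6, where the 200 had a median of 0.10 and 118 of them a lower SD. It was 0.14 for GAPC2 against a median of 0.12, with 142 of 200 lower. For AT4G34270 it was 0.17 against 0.16, with 112 lower, and for PEX4 0.17 against 0.11, with 166 lower. These counts place TUB6 at percentile 59.0, GAPC2 at 71.0, AT4G34270 at 56.0 and PEX4 at 83.0. Each gene's farthest array moved these places. Among the same 200 probe sets, GAPC2 was at 49.5 without mix 3, TUB6 at 48.0 without mix 1 and AT4G34270 at 46.0 without mix 5. With each of the 200 also given its SD without its own farthest array, 135 of 200 had a lower SD than GAPC2, 151 than TUB6 and 131 than AT4G34270.

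All 4 stayed within a range of 1.5-fold over the 8 arrays, as did 76.4% of the bright native probe sets. Among probe sets of like signal the share was 97.0% for GAPC2, 94.5% for TUB6, 91.0% for PEX4 and 70.5% for AT4G34270. With arrays scaled to a common median, PEX4 spanned 1.53-fold and left that range. Only TUB6 of the 4 stayed within 0.32 in log2 units from its lowest to its highest array, as did 29.4% of the bright native probe sets.

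**Figure D2:**
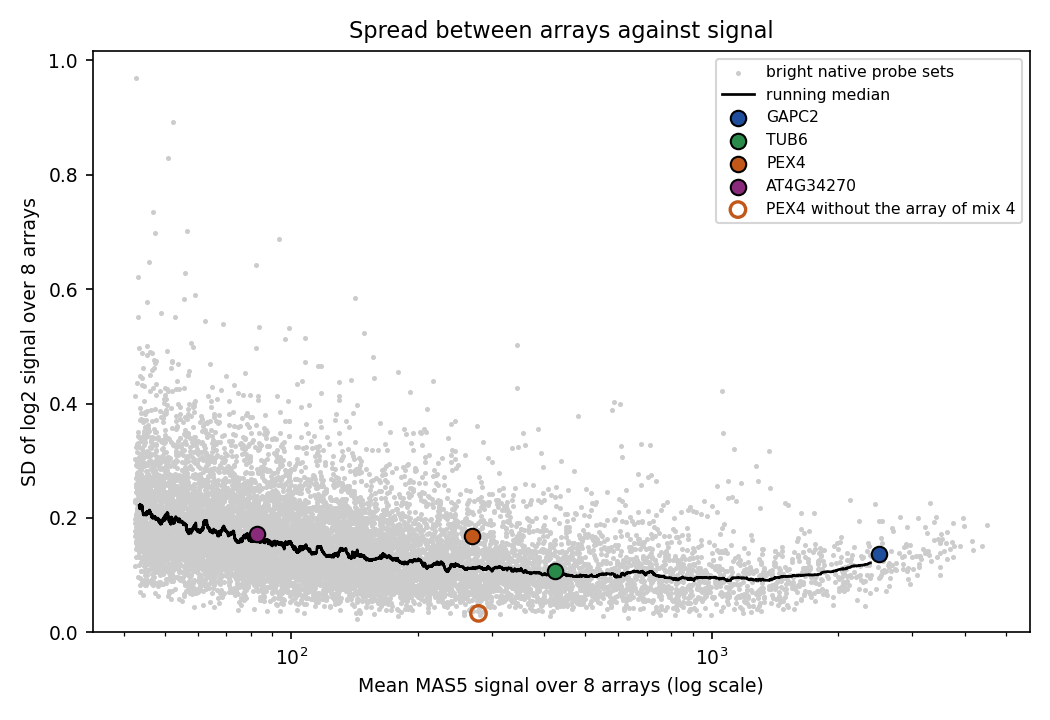
SD of log2 signal over the 8 arrays against mean MAS5 signal (log axis) for bright native probe sets (grey), with the running median over 200 probe sets (black) and the 4 genes; the open circle is PEX4 over 7 arrays. TUB6 (0.11) and AT4G34270 (0.17) lie near the median, and PEX4 moves from 0.17 to 0.033 without the array of mix 4.

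For PEX4 a single array decided this comparison. Without mix 4 its SD was 0.033, and 3 of the same 200 probe sets had a lower SD over the same 7 arrays. Mix 4 was left out because PEX4 was low there, so each of the 200 was also given its SD without its own farthest array. Their median was then 0.09, and 10 of 200 lay below PEX4. A departure as large as that of PEX4, 0.47 in log2 units from the mean of the other 7 arrays, was met by 6 of the 200 on their own farthest array. On the array of mix 4 the 200 had a median deviation of -0.0099 from their own means, against -0.41 for PEX4. The GAPDH control of the 3′ end was also lowest in mix 4, at 643 against 695 to 950 on the other arrays. So were the middle GAPDH control, at 1129, and the 5′ ubiquitin control, at 793. The actin controls, the 5′ GAPDH control and the 3′ and middle ubiquitin controls were lowest on other arrays. The 3′ ubiquitin control had 2795.5 in mix 4, in a range of 1994 to 3100. The part of what these controls measure in the low PEX4 signal was not tested.

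GAPC2 moved with probe sets as bright as itself. The 200 nearest in signal had a median deviation from their own means of 0.09 in mix 1, -0.13 in mixes 2 and 3 and 0.11 in mix 6, where GAPC2 had 0.15, -0.16, -0.23 and 0.14. With that median subtracted on each array, the SD of GAPC2 fell from 0.14 to 0.05, and its percentile among the 200, treated alike, from 71.0 to 15.5. Quantile normalization, which gives all arrays the same distribution, left an SD of 0.06 at percentile 30.5. The same subtraction changed little for the other 3 genes, whose SDs were then 0.11 for TUB6, 0.17 for AT4G34270 and 0.17 for PEX4.

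**Figure D3:**
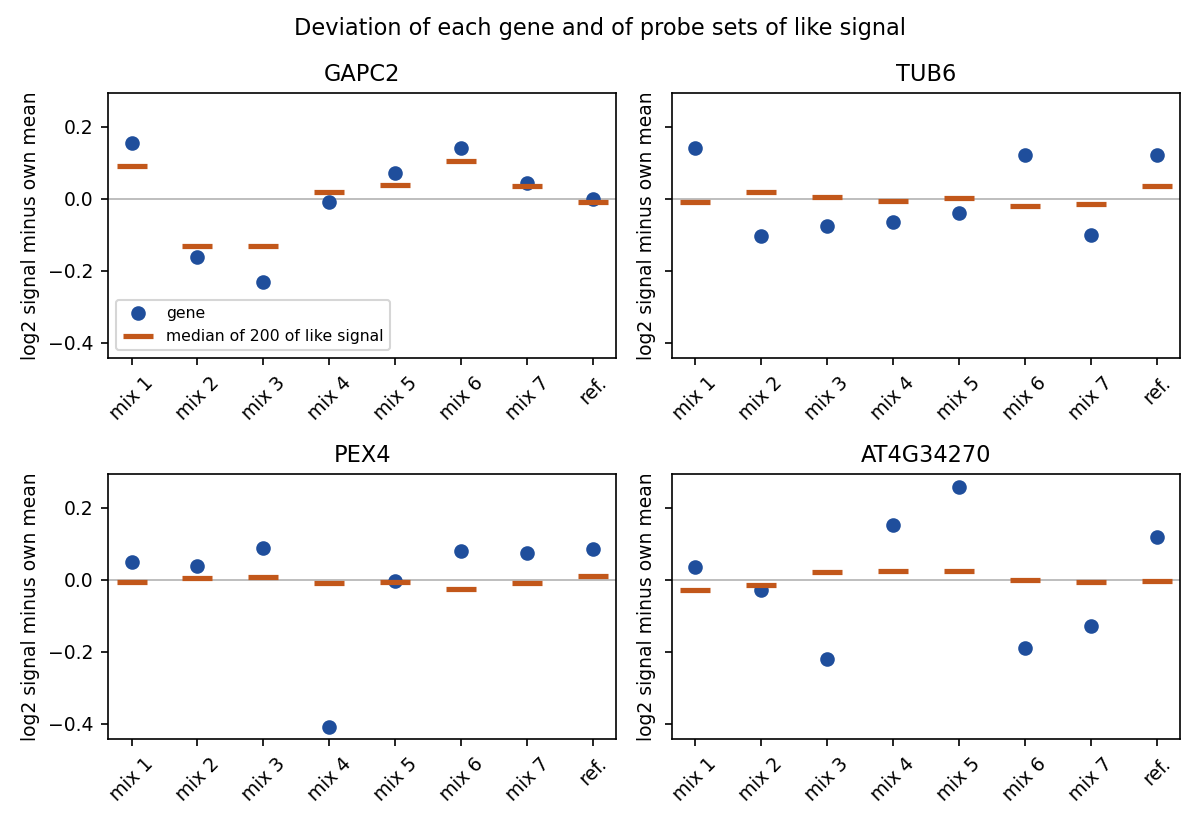
Log2 signal minus the gene's own mean over 8 arrays (points), and the median of the same quantity over the 200 native probe sets nearest in signal (bars), on each array. The bars follow the points for GAPC2, low in mixes 2 and 3, and stay near 0 for the other 3 genes.

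A ratio of 2 genes on the same array does not change when each array is scaled by a single factor. Quantile normalization is no such scaling. It lowered the SD of the log2 ratio of GAPC2 to TUB6 from 0.11 to 0.08 and that of GAPC2 to PEX4 from 0.22 to 0.17. The absolute size of a ratio depends on the probes of each gene and says nothing of transcript numbers, so only its change between arrays is read here. The most constant of the 6 ratios over all 8 arrays was that of GAPC2 to TUB6, which ran from 5.29 in mix 3 to 6.51 in mix 7, with an SD of its log2 of 0.11. The ratio was 5.94 in mix 1, 5.65 in mix 2, 6.11 in mix 4, 6.36 in mix 5, 5.97 in mix 6 and 5.41 with the reference mix. Both genes were low in mixes 2 and 3 and high in mixes 1 and 6. In mixes 5 and 7 they differed, with GAPC2 at 0.07 and 0.04 from its mean log2 signal and TUB6 at -0.04 and -0.10. With the reference mix TUB6 had 0.12 and GAPC2 -0.0018. The order of the 6 ratios depended on the arrays used: without mix 4 TUB6 to PEX4 had an SD of 0.110 against 0.112 for GAPC2 to TUB6, and without mixes 4, 5 and 6 TUB6 to AT4G34270 had 0.086 against 0.12. Ratios of GAPC2 to the probe sets of like signal to TUB6 had a median SD of 0.17, with 3.5% of them more constant. Ratios of TUB6 to those of like signal to GAPC2 had a median of 0.12, with 31.5% more constant.

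The least constant ratio over all 8 arrays was that of AT4G34270 to PEX4, with an SD of 0.29. It was 0.304 in mix 1, 0.293 in mix 2, 0.249 in mix 3, 0.453 in mix 4, 0.368 in mix 5, 0.255 in mix 6, 0.267 in mix 7 and 0.314 with the reference mix, a range of 1.82-fold. AT4G34270 was high in mix 4, where PEX4 was low. Ratios of AT4G34270 to probe sets of like signal to PEX4 had a median SD of 0.20, and 92.0% were more constant. Without mix 4 the SD of the ratio was 0.20, and without mixes 4, 5 and 6 it was 0.14, below the 0.16 of GAPC2 to PEX4.

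The other 4 ratios lay between. TUB6 to PEX4 had an SD of 0.17, and 2.01 in mix 4 against 1.40 to 1.68 on the other arrays. Without mix 4 the SD was 0.11. GAPC2 to PEX4 had 0.22, with 12.3 in mix 4 and 7.46 in mix 3 at the ends. GAPC2 to AT4G34270 had 0.19 and TUB6 to AT4G34270 0.20, both highest in mix 6, at 38.0 and 6.37, and lowest in mix 5, at 26.6 and 4.18. The mean SD of a gene's log2 ratios to the other 3, the stability value M used to choose reference genes, was 0.16 for TUB6, 0.17 for GAPC2, 0.22 for AT4G34270 and 0.23 for PEX4.

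**Figure D4:**
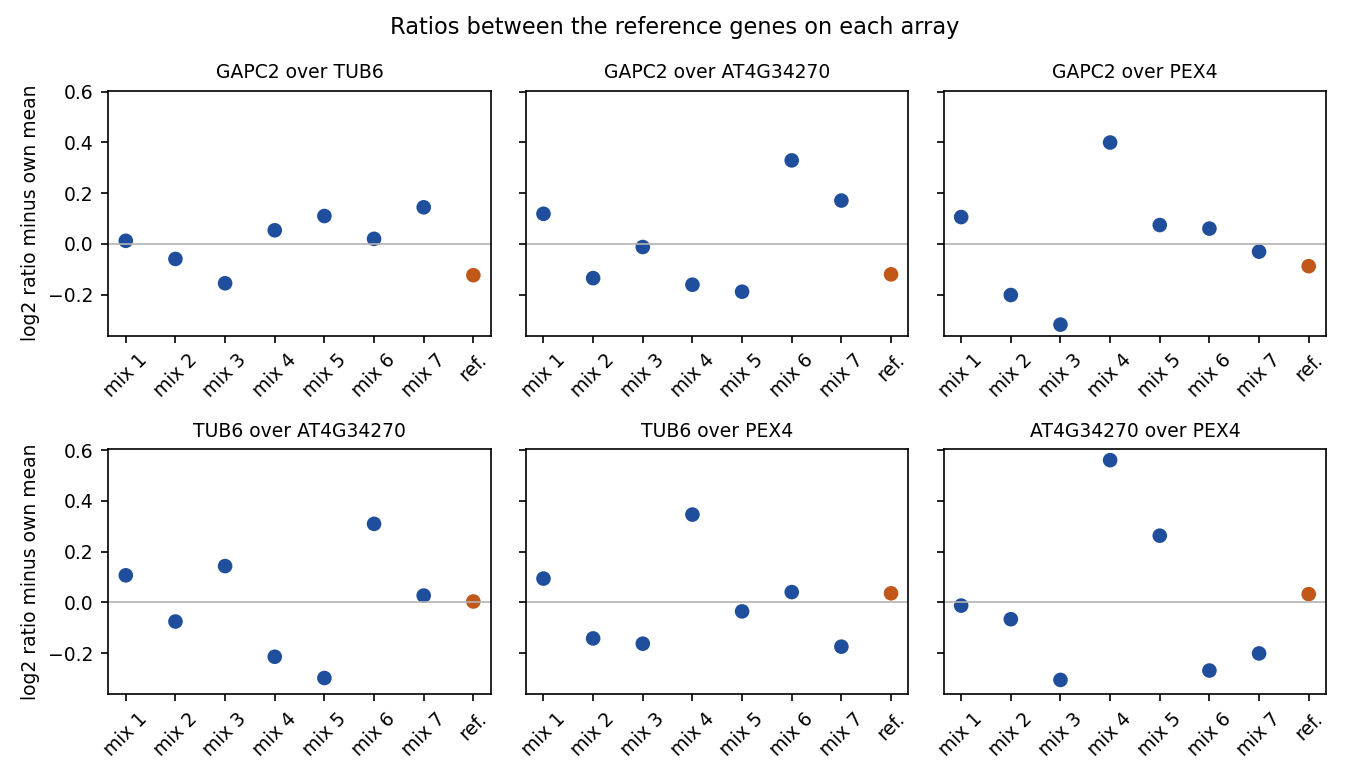
Log2 ratio of each pair of genes minus its own mean over 8 arrays, for the 7 spike mixes (blue) and the reference array (orange). Over all 8 arrays GAPC2 over TUB6 stays closest to 0 (SD 0.11), and all 3 ratios to PEX4 are highest in mix 4.

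Dividing by a single gene raised the spread of the other probe sets. The median SD of log2 signal of the bright native probe sets was 0.14 as deposited. It was 0.18 after division by TUB6, 0.20 by GAPC2, 0.22 by AT4G34270 and 0.22 by PEX4. The trimmed means were already equal, so division adds the gene's own deviations to each probe set. The values follow the order of the genes' own SDs of 0.11, 0.14, 0.17 and 0.17, and largely restate them. Without the array of mix 4, left out because PEX4 was low there, the value for PEX4 was 0.14. With their own farthest arrays left out, it was 0.18 for GAPC2 (mix 3), 0.17 for TUB6 (mix 1) and 0.20 for AT4G34270 (mix 5). The spread as deposited was not computed over those fewer arrays, so these values cannot be set against the 0.14 as deposited. The geometric mean of all 4 genes varied less than any single one, with an SD of 0.08 and a range of 1.15-fold, and left a median of 0.17.

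The same can be put as the share of bright native probe sets called different from the reference array, by 0.32 or more in log2 units in either direction. As deposited it ran from 11.9% in mix 2 to 23.3% in mix 6, and it was 16.8% in mix 4. After division by PEX4 it was 81.5% in mix 4, with 9209 probe sets higher and 44 lower, and from 13.5% to 23.4% in the other mixes. After division by AT4G34270 it was 54.2% in mix 3, 49.9% in mix 6 and 35.4% in mix 7. GAPC2 gave 34.4% in mix 3, where 3814 were higher and 88 lower, and TUB6 gave from 15.0% in mix 1 to 31.5% in mix 7. The geometric mean of the 4 gave from 12.4% to 28.5%, and without PEX4 among them up to 38.6%, in mix 3. Each division shifts all probe sets of an array alike, so these shares add no evidence beyond the factor and the differences already present as deposited. The latter matter too. Relative to the reference array, the log2 factor was 0.142 for GAPC2 in mix 6 and 0.140 for AT4G34270 in mix 5. The shares were 30.0% and 18.6%.

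**Figure D5:**
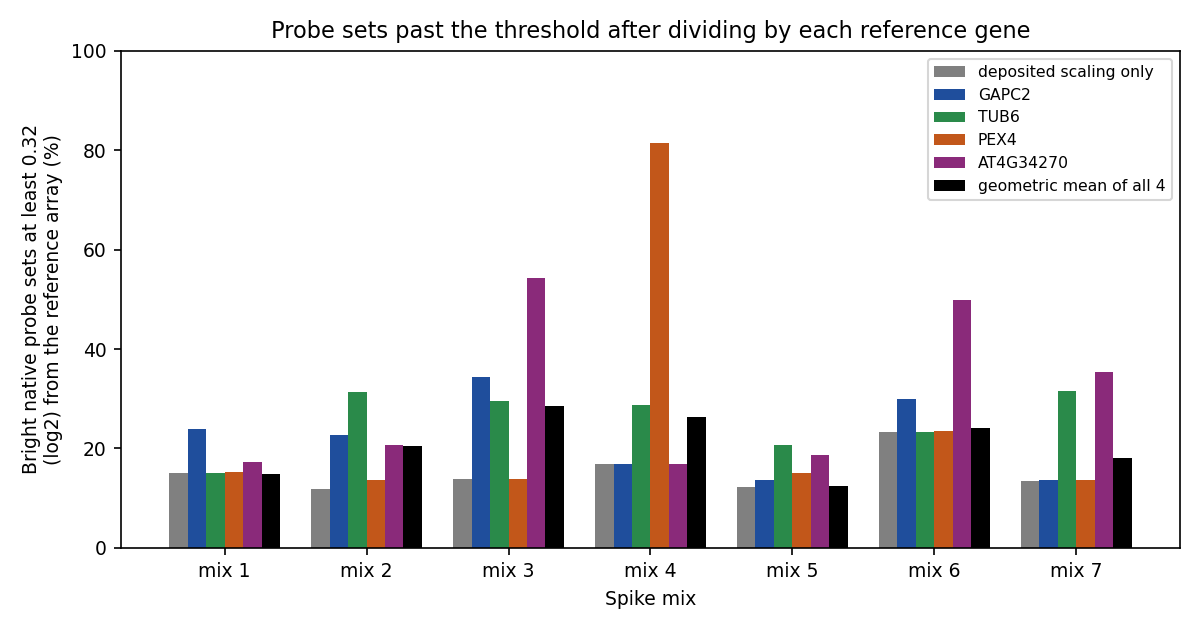
Share of 11352 bright native probe sets that differ by 0.32 or more in log2 units between a mix and the reference array (bars from 0), as deposited and after division by each gene or by the geometric mean of all 4. PEX4 in mix 4 (81.5%) and AT4G34270 in mixes 3 (54.2%) and 6 (49.9%) give the tallest bars.

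Among 31 genes of a list of common references, 12 had a probe set of their own and 10 of these were bright. In all, 8 of the 10 stayed within 1.5-fold over the arrays, against 76.4% of all bright native probe sets, and the median SD was 0.14 for both. Without mixes 4, 5 and 6 all 10 did so, against 91.3%. AT4G26410, a gene proposed as a stable reference, had 433 ± 30.5 and an SD of log2 signal of 0.10, the lowest of the list. That SD was at percentile 53.0 among probe sets of like signal, whose median SD was 0.099. AT4G33380 had the highest SD, 0.36, with 118 in mix 6 against 188 to 254 on the other arrays. The other one outside the range was AT5G46630, a clathrin adaptor subunit gene, with 195 in mix 6 and 247 to 300.2 elsewhere; it was chosen after its values were seen. The dim AT5G12240 had 41.6 ± 7.06. By the mean SD of ratios to the other 9 bright genes over all 8 arrays, TUB6 ranked 3rd at 0.22 and PEX4 6th at 0.23. GAPC2 ranked 7th at 0.24 and AT4G34270 8th at 0.24. GAPC2 with TUB6 was the most constant of the 45 pairs over all 8 arrays. The next 2, picked after their values were seen, were PEX4 with AT2G28390, a SAND family gene that was also lowest in mix 4 at 76.0, with an SD of 0.12, and AT4G34270 with AT4G26410, with 0.13.

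Of 17 tubulin genes, 7 had a probe set of their own, all bright, and 6 stayed within 1.5-fold, against 76.4% of all bright native probe sets. The alpha-tubulin gene TUA6 had 1291 ± 51.5 and an SD of log2 signal of 0.06, lower than the 0.11 of TUB6, and TUB5 had 750 ± 71.6. TUA1, an alpha-tubulin gene known from pollen, was the exception, with 130 ± 24.5 and an SD of 0.26. The median SD of the 7 was 0.11, against 0.14 over all bright native probe sets.

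Beside GAPC2, 4 more of 19 genes of glyceraldehyde-3-phosphate dehydrogenases and glycolysis were measured, and all 5 stayed within 1.5-fold, against 76.4% of all bright native probe sets. Among probe sets of like signal to GAPC2 the share was 97.0%. ALDH11A3, the gene of a non-phosphorylating dehydrogenase of the same substrate, had 1085 ± 40.7 and an SD of 0.05. TPI, triosephosphate isomerase, had 1742 ± 171 and, like GAPC2, was lowest in mix 3, at 1459, and highest in mix 1, at 2081. The pyruvate kinase genes AT5G08570 and AT5G56350 had 212 ± 11.5 and 192 ± 15.1. Of the manufacturer's GAPDH controls, the middle one had 1251 ± 82.5, and the log2 of its ratio to GAPC2 had an SD of 0.11. The 5′ control had 597 ± 52.3, with an SD of 0.19 for that ratio, and the 3′ control 815 ± 114, with 0.27. GAPC2 was lowest in mix 3, where the 3′ control was highest, at 950. The 3′/5′ ratio of the GAPDH controls lay between 1.20 and 1.54, that of actin between 1.63 and 4.31 and that of ubiquitin between 2.46 and 3.52; their part in the spread of the 4 genes was not tested.

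The other lists were small. RAPTOR1, which encodes a partner of the TOR kinase, had 93.0 ± 6.14 and an SD of log2 signal of 0.09, against 0.17 for AT4G34270 at a like signal, and its paralogue RAPTOR2 had 27.4 ± 3.23. Of 8 actin genes, ACT11 had 107 ± 10.7 and ACT12 lay under the floor. The middle, 3′ and 5′ actin controls had SDs of log2 signal of 0.07, 0.05 and 0.42. Of 23 peroxin genes, PEX4 was the one measured.

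The genes whose ratio to each member was most constant were picked from 6008 bright native probe sets with 1 gene, so closeness is in part a matter of choice. For GAPC2 they were ATPC1, atpE and LHCB4.2, genes of the chloroplast ATP synthase and of a light-harvesting protein, with SDs of the log2 ratio of 0.04 each. Their mean signals of 2873 to 3434 also lie among the highest on the array. For TUB6 they were AT4G24550, AT4G30010 and SRC2, with 0.05, 0.05 and 0.06. For AT4G34270 they were AT4G28740, AT2G31110 and AT5G60990, with 0.04, 0.06 and 0.06, and the ratio of AT4G28740 to it stayed between 2.36 and 2.60. For PEX4 they were AT5G58920, AT5G55100 and AT3G14760, with 0.06, 0.07 and 0.07. These 3 were also low in mix 4, at 73.5, 44.8 and 65.0 against medians of 97.1, 58.5 and 90.8. That was fixed by the choice, since a constant ratio to PEX4 requires a low value where PEX4 was low. The median SD over all 6008 was 0.20 for GAPC2, 0.19 for TUB6, 0.23 for AT4G34270 and 0.22 for PEX4.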

How the data were processed

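The deposited table holds a linear intensity for each of 22810 probe sets, which the authors made with MAS5 according to the labels (per the submitters' processing notes). The MAS5 version and the scanner are not given in the sources used here. The deposited intensity values were used without further scaling, since trimmed means were equal. Gene names came from the platform annotation, with 1 gene for 13513 probe sets, several for 503 and 8794 unnamed here, and 13436 of those with 1 gene matched a locus in the TAIR10.1 gene table. Values under the 25th percentile of the table, 12.9, were set to it before log2 was taken. Native probe sets, 22731 in number, exclude 64 controls and 15 that span 16-fold or more. SDs of log2 signals and ratios were computed over the 8 arrays, whose number limits the precision; no p-value was computed, since each mix has 1 array.

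The members, lists and comparisons were chosen with earlier results of these data known. Named genes were the 4 members; all measured members of lists of up to 6, otherwise the 2 brightest, the 2 most and the 2 least variable; the 3 probe sets of most constant ratio to each member; and the array's actin, GAPDH and ubiquitin controls. Alternatives were other scalings, floors, comparators, thresholds, numbers of probe sets of like signal, and left-out arrays. The spread and percentile steps were tested on simulated data. Python 3.11.15, numpy 2.4.6, pandas 2.3.3 and matplotlib 3.10.9 were used.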

Additional observations from a re-analysis of the deposited data

Results flagged for a closer look

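In 3 of 39 measures a single array lay far from the rest; chance flags about 1 in 20 groups. PEX4 had a signal of 201 in mix 4 against 267 to 284 elsewhere. The ratio of TUB6 to PEX4 was 2.01 in mix 4 against 1.40 to 1.68, and holds the same PEX4 value. TUA6 had 1172 in mix 3 against 1276 to 1330.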

How the results depend on the processing

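No paired analysis was possible because each mix has 1 array and the labels give the same replicate number to all. Single left-out arrays aside, 264 of 296 values under other settings moved by less than the spread taken for them, and 32 by more. That spread was the SD over arrays for a log2 ratio to the reference array. For other values it was a jackknife error over arrays, and for counts of genes a factor of 1.5. Part of the 264 was fixed by the setting. GAPC2, TUB6, AT4G34270, PEX4 and the counted list genes lay above the other floors, so their signals and ratios could not move there. Common-median scaling cannot change the SD of a ratio or the spread after division by a gene. The 264 thus includes values for which these settings were no test. For PEX4 the spread was also wide, at 75.2 around its percentile of 83.0 and 0.13 around its SD of 0.17. Moves smaller than that say little of how stable its values are. For log2 ratios to the reference array the spread, a gene's SD, was larger than many of the ratios. No called log2 ratio changed sign (0 of 2), but that of AT4G34270 in mix 3 fell short of the threshold against the mean of the other 7 arrays (-0.25), and that of AT4G34270 in mix 6 passed it under common-median scaling (-0.43) and quantile normalization (-0.34). Over all 8 arrays, genes within 0.32 in log2 units in place of 1.5-fold were 2 of 10 bright common references, 2 of 7 tubulins, 3 of 5 for glycolysis, 0 of 1 peroxin, 1 of 2 of the TOR list and 0 of 1 actin, against 29.4% of bright native probe sets.

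Scaling to a common median shifts all genes by -0.12 in log2 units in mixes 4 and 6 relative to the reference array. TUB6 then had an SD of 0.13, with -0.30 in mix 4 and -0.12 in mix 6 against that array, and the count of peroxin genes within 1.5-fold was 0. Quantile normalization gave GAPC2 an SD of 0.059 at percentile 30.5, a ratio of -0.0047 in mix 6, an SD of 0.082 for its ratio to TUB6, and a median SD of 0.15 for bright native probe sets divided by it. Relative to probe sets of like signal, a setting chosen after seeing the data, its SD was 0.051 at percentile 15.5. Against the mean of the other 7 arrays TUB6 had 0.16, -0.087, -0.073, -0.045 and 0.14 in mixes 1, 3, 4, 5 and 6.

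Without the arrays of mixes 4, 5 and 6, TUB6 had an SD of 0.12 at percentile 82.5, AT4G34270 0.13 and PEX4 0.022 at percentile 1.5. The ratios of AT4G34270 to GAPC2, TUB6 and PEX4 then had SDs of 0.14, 0.086 and 0.14, and the median SD after division was 0.18 for AT4G34270 and 0.12 for PEX4. With single arrays left out, the SD of PEX4 ran from 0.033 to 0.18, its percentile from 0.5 to 91.0 and the median SD after division by it from 0.14 to 0.23, each lowest without mix 4, and with the 200 probe sets redrawn each time.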
